A study of Mus musculus with 4 samples.

Results

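The mark described is H3K27me3, trimethylation of lysine 27 of histone H3, across wide stretches of the mouse autosomes. It was measured by chromatin immunoprecipitation and sequencing (ChIP-seq) in MDER 10T cells, which the labels call fibroblasts and the series title describes as carrying an estrogen-inducible MyoD1. The H3K27me3 library (Abcam antibody AB6002) is set against the library of whole-cell extract (WCE), chromatin of the same line sequenced with no antibody, so 2 of the 4 libraries of the series enter the main comparison. The other 2, for H3K4me3 and H3K9me3, are given only beside it. All 4 came from cells grown in phenol red-free medium with serum. The labels name no estrogen or other treatment, and no separate clones or cultures. Each group holds 1 library, so there is no spread between replicates, and every test on reads compares these 2 libraries and not conditions. No gene positions of the genome build used (mm8) were at hand, so the cell type was not checked against marker genes and regions are named by position.

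H3K27me3 is laid down by Polycomb repressive complex 2, whose catalytic subunit is EZH2 or EZH1. Its EED subunit binds the finished mark, which is how the complex is thought to spread it along neighbouring nucleosomes, and Polycomb repressive complex 1 binds it through CBX proteins. In differentiated cells such as fibroblasts the mark is known for wide domains over silent developmental regulators, among them the Hox clusters on chromosomes 2, 6, 11 and 15, and for low, even levels over other silent sequence. These 2 forms ask for different window sizes, because a low, even level gives few reads in any short window.

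With each signed position counted once, 2933567 H3K27me3 and 2977697 WCE reads lay on the autosomes, 1466179 and 1489416 of them on the forward strand. Repeated positions made up 6.85% and 6.37% of autosomal reads. The autosomes were cut into tiles of 10, 20, 50 and 100 kb. The ratio of a tile is its H3K27me3 reads over its WCE reads, with WCE scaled to the same autosomal total, and intervals are 95% exact (Clopper-Pearson). Counting error is all they cover: the libraries were amplified by PCR and carry no molecular identifiers, so reads need not stand for separate molecules. A tile was called higher at a ratio of at least 1.5, or lower at most the inverse of 1.5, with an adjusted p under 0.05 in a one-sided exact binomial test of its reads.

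H3K27me3 was raised over WCE at every tile size, and the called length grew up to 50 kb tiles and was slightly smaller at 100 kb. At 10 kb, 7631 of 185550 tiles were called higher (4.11%), which cover 76.3 Mb and hold 13.8% of the H3K27me3 reads and 4.61% of the WCE reads, a ratio of 2.99 (2.98 to 3.01). At 20 kb, 7494 tiles were called (6.72%), covering 150 Mb with 21.4% of the H3K27me3 reads. At 50 kb, 4680 tiles (10.0%) covered 234 Mb, held 26.9% of the H3K27me3 and 13.5% of the WCE reads and had a ratio of 2.0 (1.99 to 2.01). At 100 kb, 2209 tiles (9.37%) covered 221 Mb with 24.3% of the H3K27me3 reads, at a ratio of 1.90 (1.89 to 1.90). In such bulk samples, more cells with the mark and more of it per cell cannot be told apart.

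The depth sets what each size can show. The median tile held 13 WCE reads at 10 kb and 115 at 100 kb. Against that median, a call needed 33 H3K27me3 reads at 10 kb, a ratio of 2.58, and 170 at 100 kb, a ratio of 1.5. At 20 and 50 kb the ratio needed was 2.03 and 1.57. A smaller raised level could not be called in a 10 kb tile with the median of 13 WCE reads or fewer, while denser tiles could be called at a lower ratio. Tiles called on forward-strand reads alone were remeasured on the reverse-strand reads, which had no part in the call. The drop between strands was largest at 10 kb, where 2901 tiles went from 4.16 to 2.90 (2.87 to 2.94), and the 1094 of them without a called 4 kb window from 4.10 to 1.85 (1.81 to 1.90). For 3467 such tiles of 20 kb the ratio was 2.96 on the forward and 2.41 (2.39 to 2.43) on the reverse strand, and for 2181 tiles of 100 kb 1.93 and 1.81 (1.8 to 1.82). On the reverse strand 2163 of the latter (99.2%) lay above WCE.

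Adjoining called tiles were joined into domains, and most domains were short. The 4815 domains of 10 kb tiles had a mean length of 15.8 kb. A single tile made up 69.7% of them and another 17.3% were 20 kb long. Domains of at least 50 kb numbered 165 and held 14.3% of the called length, and 13 reached 100 kb. Neighbouring domains lay a median of 70 kb apart. Of 4796 gaps between neighbours, 902 (18.8%) were a single tile that missed the call and 2141 (44.6%) were at most 50 kb, while 429 (8.94%) exceeded 1 Mb.

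Longer domains also held more H3K27me3 per tile. The ratio rose from 2.89 (2.86 to 2.92) over single tiles to 3.04 (3.0 to 3.08) at 30 to 40 kb, 3.16 (3.11 to 3.21) at 50 to 90 kb and 3.4 (3.29 to 3.52) at 100 kb and over. The domains were chosen on these reads, so these ratios are a description. In reads per 10 kb tile scaled to library size (RPM), H3K27me3 rose from 15.2 in single tiles to 30.5 in the longest class, against 5.21 over all tiles tested. WCE rose too, from 5.27 to 8.95 RPM, against 5.07 over all tiles, and its part in the lengths was not tested. A called 4 kb window, by a rule described with the weak tiles, touched 28.2% of single-tile domains and 76.2% of the tiles in domains of at least 100 kb.

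Length depended on the tile used to see it. With 20 kb tiles there were 3972 domains with a mean of 37.7 kb, and 261 reached 100 kb. With 50 kb tiles there were 2487, with a mean of 94.1 kb, and with 100 kb tiles 1331, with a mean of 166 kb. The longest measured 180, 420, 800 and 1100 kb at the 4 sizes. Single tiles made up 57.9% to 69.7% of domains at every size, so no tile size gave a typical domain of many tiles. Wider tiles need a lower ratio and bridge gaps, and both lengthen domains.

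**Figure D1:**
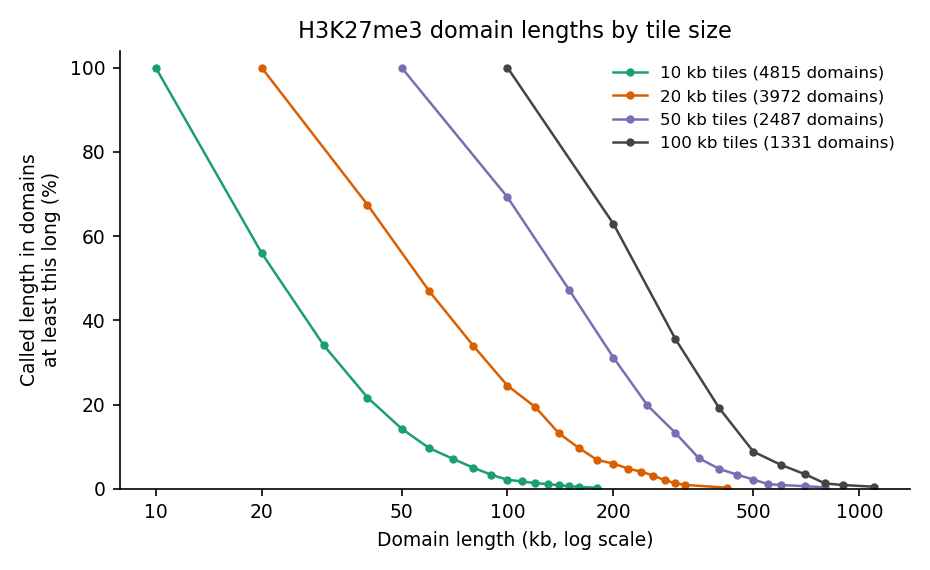
Share of the called length (y axis, %) that lies in H3K27me3 domains at least as long as the value on the x axis (kb, log scale), with 1 line per tile size. Domains of at least 100 kb hold 2.15% of the called length with 10 kb tiles, 24.5% with 20 kb tiles and 69.2% with 50 kb tiles.

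The longest domain of 10 kb tiles ran for 180 kb on chromosome 8 from 123800001 to 123980000. It held 1882 reads of H3K27me3 against 545 of WCE, a ratio of 3.51 (3.18 to 3.86). Its 18 tiles held 57 to 258 H3K27me3 reads and 21 to 39 WCE reads, and their ratios ran from 1.96 through a median of 2.94 to 12.5. The H3K27me3 reads were highest at the end with higher coordinates, and the 3 strongest tiles held 40.2% of the excess over scaled WCE. The 2 flanks differed. Over 50 kb on the lower-coordinate side the mark stayed at a ratio of 2.86 (479 and 170 reads), and on the other side it was 0.836 (192 and 233 reads). A second long domain, 130 kb from 123570001 to 123700000 (ratio 2.79, 2.47 to 3.16), lay on that lower side. With 20 kb tiles both fell into 1 domain of 420 kb from 123560001 to 123980000, with 3711 H3K27me3 and 1263 WCE reads (2.98, 2.80 to 3.18).

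Another domain on chromosome 8, 160 kb from 125500001 to 125660000, held 1948 H3K27me3 and 645 WCE reads (3.07, 2.80 to 3.36). Both of its flanks were at the level of WCE, at 0.931 and 1.02, so it ended sharply on each side. Called 4 kb windows made up 27 of its 40. On chromosome 19, 150 kb from 6400001 to 6550000 had a ratio of 3.29 (2.96 to 3.67), with flanks of 0.979 and 2.30. On chromosome 9, 140 kb from 57810001 to 57950000 had 3.04 (2.71 to 3.42), with flanks of 1.47 and 2.79.

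The strongest of the 12 longest domains lay on chromosome 19 from 44770001 to 44900000, with 1528 H3K27me3 and 303 WCE reads in 130 kb (5.12, 4.52 to 5.81). Its tile ratios ran from 2.74 to 9.97, and both flanks were raised, at 3.14 and 1.89. Close to it in strength was 110 kb of chromosome 6 from 52150001 to 52260000, with 1191 and 241 reads (5.02, 4.36 to 5.79) and tile ratios of 2.71 to 8.36. That domain had flanks of 0.740 and 1.60 and an H3K4me3 ratio of 1.56 (1.32 to 1.84), while the other 11 ran from 0.624 to 1.13 for H3K4me3.

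The remaining 5 of the 12 were 100 to 120 kb long, with ratios from 2.67 to 3.83. They lay on chromosome 2 from 164760001, chromosome 11 from 77690001, chromosome 5 from 122150001, chromosome 19 from 45270001 and chromosome 15 from 78430001. The domain on chromosome 5 had the narrowest range of H3K27me3 reads of the 12, 38 to 62 per tile, and 4 of its 28 windows of 4 kb were called. In all 12 the weakest tile had a ratio of at least 1.76, but the call itself asked for at least 1.5 in each tile.

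**Figure D2:**
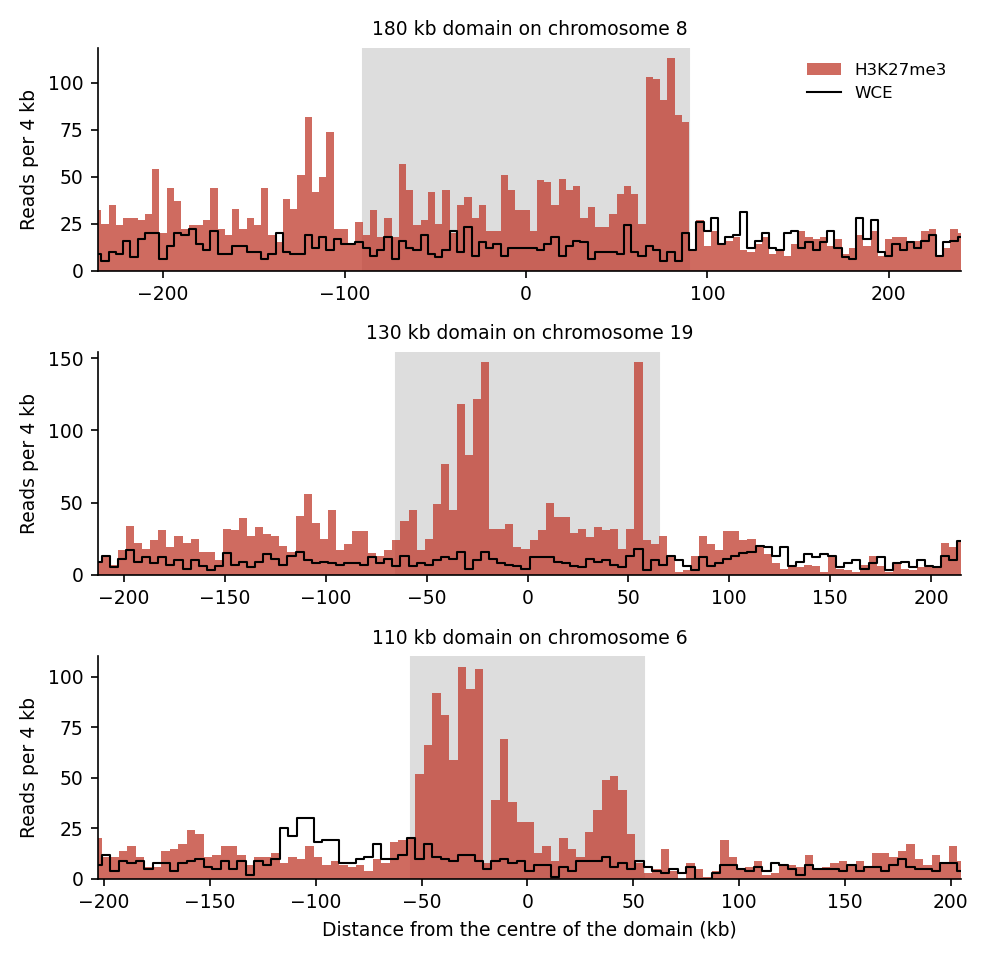
Reads per 4 kb window (y axis) against the distance from the centre of the domain (x axis, kb) for 3 of the 12 longest H3K27me3 domains, with H3K27me3 filled, WCE as a line and the domain shaded. The 180 kb domain is high at 1 end, the 130 kb domain has strong cores in a raised stretch, and the 110 kb domain on chromosome 6 falls to the WCE level outside its lower-coordinate edge.

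To see how the signal falls with distance, domains of 10 kb tiles were chosen on forward-strand reads and measured on reverse-strand reads, by distance to the nearest edge of any domain. Outside the 2230 domains the ratio was 2.10 (2.05 to 2.15) within 2 kb of the edge and 1.88 (1.84 to 1.92) at 2 to 5 kb. It was 1.70 (1.67 to 1.73) at 5 to 10 kb, 1.52 (1.5 to 1.54) at 10 to 20 kb and 1.29 (1.28 to 1.3) at 20 to 50 kb. H3K27me3 reached the level of WCE at 100 to 200 kb, with 1.02 (1.01 to 1.02). Further out it was 0.981 (0.976 to 0.986) at 200 to 500 kb and 0.914 (0.908 to 0.920) at 500 to 1000 kb. Beyond 1 Mb it was 0.779 (0.776 to 0.783). The fall was thus gradual on average, and no level was seen at which it stopped. A ratio of 1 is set by the autosomal totals and is no floor, since the median 100 kb tile had 0.806. Domains missed at the lower depth of 1 strand lie in these flanks, as do parts of domains beyond the 10 kb grid, and their part in the slope was not tested.

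Inside domains the level was lower in the outer 5 kb than further in. Edges lie on the 10 kb grid, so the outer 5 kb can hold sequence past the end of the marked stretch. The part of the grid in this difference was not tested. In the 21 domains of at least 50 kb the ratio was 2.98 (2.61 to 3.4) in the outer 5 kb, 4.64 (4.04 to 5.35) at 5 to 10 kb, 4.47 (4.06 to 4.93) at 10 to 20 kb and 4.50 (4.11 to 4.92) at 20 to 50 kb. The intervals of the 3 inner values overlap. With the strands exchanged the 4 values were 2.98 (2.59 to 3.44), 3.95 (3.44 to 4.56), 4.15 (3.76 to 4.58) and 4.63 (4.23 to 5.07). The intervals of the 3 inner values overlap there too. In the 417 domains of 20 to 40 kb the outer 5 kb had 2.77 (2.68 to 2.87) the next 5 kb 3.48 (3.37 to 3.59) and the part at 10 to 20 kb 3.69 (3.5 to 3.89). Outside, the 3 length classes were close within 10 kb of the edge, at 1.72, 1.78 and 1.68 at 5 to 10 kb for long domains, domains of 20 to 40 kb and single tiles. At 10 to 20 kb the ratio of the long domains was 1.11 (0.962 to 1.28), against 1.55 (1.5 to 1.60) around domains of 20 to 40 kb and 1.52 (1.5 to 1.54) around single tiles. With domains chosen on the reverse strand and measured on the forward strand, it was 1.45 (1.25 to 1.69) around 19 long domains, against 1.62 (1.56 to 1.67) and 1.5 (1.48 to 1.53), so the intervals then overlapped and the difference at this distance rests on the choice of strand.

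H3K4me3, which marks active promoters, took another course around the same domains, on ratios that share the WCE reads with those of H3K27me3. Around all domains it was 0.943 (0.916 to 0.971) within 2 kb of the edge, 1.23 (1.21 to 1.25) at 10 to 20 kb and 1.42 (1.41 to 1.43) at 50 to 100 kb, before falling to 0.719 beyond 1 Mb. Around the long domains it reached 3.10 (2.76 to 3.49) at 10 to 20 kb, where inside them, at 20 to 50 kb from the edge, it was 0.967 (0.862 to 1.09). With the strands exchanged these were 2.40 (2.10 to 2.76) and 0.869 (0.771 to 0.980). In the outer 5 kb inside the long domains H3K4me3 was raised, at 1.39, and at 1.40 with the strands exchanged. Both intervals lay above the level of WCE. Just outside the long domains it was 1.24 within 2 kb and 0.865 at 2 to 5 kb, and 1.66 and 1.05 with the strands exchanged. H3K4me3 thus did not change in a single step at the edge of long domains. Around all domains H3K9me3, a mark of heterochromatin, was 1.15 (1.11 to 1.18) within 2 kb and 1.02 (1.01 to 1.03) at 50 to 100 kb, a smaller excess over the same span as H3K27me3.

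**Figure D3:**
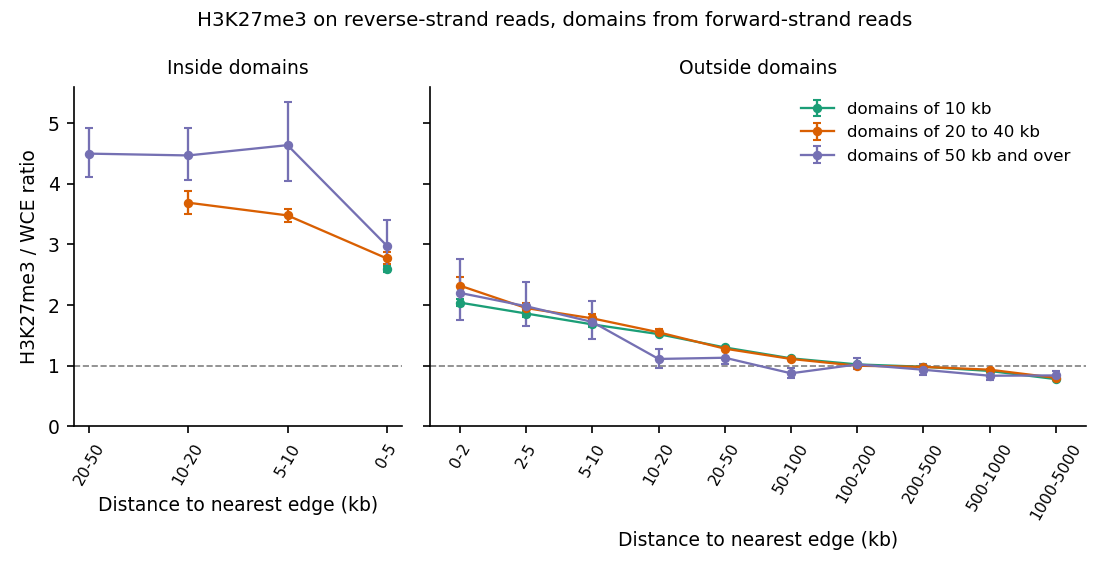
H3K27me3 over WCE ratio (y axis) against the distance to the nearest domain edge (x axis, kb, unequal steps), inside domains on the left and outside on the right, for 3 classes of domain length. Points are reverse-strand reads and bars are 95% exact intervals. All 3 classes fall from above 2 at the edge to about 1 at 100 to 200 kb.

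A second measure of reach needs no choice of domains and is on another scale. The covariance between forward-strand and reverse-strand log2 ratios of 10 kb tiles (1 read added to each library) holds no shared counting error, because the strands share no reads. Set to 100% at distance 0, it was 84.3% between adjoining tiles, 53.4% at 50 kb, 38.6% at 100 kb and 28.1% at 200 kb. A slow part followed, with 22.5% at 500 kb, 18.2% at 1 Mb and 4.19% at 5 Mb. These values describe 185550 tiles that are not independent replicates and share libraries and regional density. For H3K4me3 31.2% was left at 10 kb and for H3K9me3 70.1% at 10 kb and 51.4% at 100 kb, against the same WCE reads. Each mark's percentages are relative to its own covariance at distance 0, which was 0.326 for H3K27me3 and 0.617 for H3K4me3. Before that division H3K4me3 was close to H3K27me3 at long range, with 0.117 against 0.126 at 100 kb. At 500 kb it was 0.0721 against 0.0734, and at 1 Mb 0.0588 against 0.0593. The slow part was thus not particular to H3K27me3, and its source was not tested. Without the tiles that hold a called 4 kb window H3K27me3 kept the same course, with 52.4% at 50 kb and 38.5% at 100 kb.

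Much of the enrichment was too weak for 4 kb windows. A 4 kb window was called at an adjusted p under 0.05 and a ratio of at least 2 in the same test, and 3736 of 555736 were (0.672%). The median window held 5 WCE reads, against which a call needed 24 H3K27me3 reads, a ratio of 4.87. Of the 2209 tiles of 100 kb called higher, 970 (43.9%) held no called 4 kb window. These weak tiles cover 97.0 Mb and hold 8.11% of the H3K27me3 and 4.76% of the WCE reads, a ratio of 1.70 (1.69 to 1.72) that ran from 1.5 to 2.74 over single tiles. They held 98319 H3K27me3 reads above scaled WCE, close to the 112140 in all called 4 kb windows, whose ratio was 5.12 (5.05 to 5.19) over 14.9 Mb. The largest excess, 147877 reads, lay in called 100 kb tiles with a called window, outside those windows. These excesses were counted on the reads that made the calls, so they are a description.

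How the reads lie within weak tiles is a description, since tiles with a strong 4 kb window were left out by definition and the call used the same reads. Their 4 kb windows had a median of 9 H3K27me3 and 5 WCE reads, and H3K27me3 exceeded scaled WCE in 83.4% of the windows with reads, against 43.1% in tiles that had no called window and were not called higher and 81.9% to 89.2% in called tiles with windows. The 5 fullest windows of a weak tile held a median of 34% of its H3K27me3 reads and, ranked on WCE, 34.5% of its WCE reads. The 2 shares were alike, although WCE has fewer reads there and a smaller count raises such a share. Called 10 kb tiles were missing from 300 of the 970 (30.9%), against 14.2% of all called and 84.9% of all tested 100 kb tiles. In 106 (10.9%) neither a 10 kb nor a 20 kb tile was called, against 4.93% and 81.5%. A neighbouring 100 kb tile was called for 578 of the 970 (59.6%). Among all 2209 called tiles, 819 had no called neighbour, so weak tiles were much like called tiles as a whole in this.

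Weak tiles also held up on reads that did not choose them. Among 100 kb tiles called on the forward strand, 960 held no called 4 kb window, and their ratio went from 1.76 to 1.56 (1.54 to 1.57) on the reverse strand, where 944 (98.3%) lay above WCE. The 4 kb calls used both strands, so this choice is not wholly separate. With H3K9me3 as the control in place of WCE, 538 of the 970 (55.5%) were still called higher. When tiles took the expected ratio of megabases of like WCE density, 620 (63.9%) were.

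**Figure D4:**
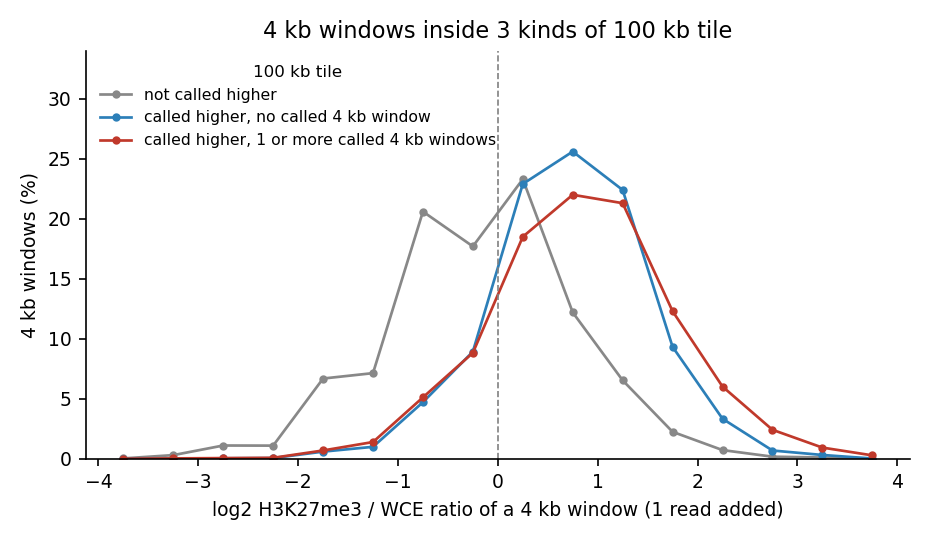
Share of 4 kb windows (y axis, %) by the log2 ratio of H3K27me3 to WCE in the window (x axis, 1 read added, windows with at least 6 reads), for 3 kinds of 100 kb tile. In tiles called higher without a called window the distribution is moved to the right of that in tiles not called higher, with its highest point, 25.6% of windows, between 0.5 and 1.0.

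The weak tile with the highest ratio was chromosome 11 from 5500001 to 5600000, with 219 H3K27me3 and 81 WCE reads (2.74, 2.12 to 3.59). Its 25 windows held 0 to 17 H3K27me3 reads and 0 to 7 WCE reads, with H3K27me3 above scaled WCE in 22. Next to it in ratio and of like depth were chromosome 1 from 164200001 (221 and 86 reads; 2.61, 2.02 to 3.39), chromosome 5 from 66100001 (262 and 112; 2.37, 1.90 to 2.99) and chromosome 18 from 53600001 (315 and 135; 2.37, 1.93 to 2.92). In the last, 23 of 25 windows lay above scaled WCE, and the fullest held 25 reads. Chromosome 7 from 97800001 (162 and 65) and chromosome 10 from 23700001 (117 and 50) were thinner. The other 2 of the 8 rest on few reads, 40 and 15 on chromosome 13 from 23200001 and 45 and 17 on chromosome 10 from 85200001. On chromosome 13 the H3K4me3 and H3K9me3 ratios were raised as well, at 2.25 and 2.55.

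Tiles called higher at 100 kb that held called 4 kb windows had a raised level beyond them. Where a 100 kb tile called higher held 5 or more called windows (122 tiles), its ratio was 2.68 (2.64 to 2.72). Without the called windows and the windows next to them it was 1.62 (1.58 to 1.65), and more than 20 kb from any of them 1.24 (1.19 to 1.29), on the 14.4% of the length left. With 1 called window (545 tiles) the 3 values were 1.79, 1.63 (1.61 to 1.64) and 1.55 (1.53 to 1.57). The level without called and adjoining windows was thus alike in both kinds of tile, and more than 20 kb away it was higher in tiles with 1 called window. The tiles were chosen on these reads, and a tile with few called windows can pass the 100 kb call only through its other parts, so the order is a description. Of the 1934 tested tiles with a called window, 1239 (64.1%) were called higher at 100 kb. In the other 695 the ratio was 1.24 (1.23 to 1.25) and fell to 0.947 (0.938 to 0.956) more than 20 kb away from called windows.

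The highest ratios over 100 kb were found on chromosome 15 from 102700001 to 102800000, with 1136 H3K27me3 and 179 WCE reads (6.44, 5.50 to 7.58), and on chromosome 11 from 96000001 to 96100000, with 1067 and 183 (5.92, 5.05 to 6.96). In the first, each of the 25 windows lay above scaled WCE, with 7 to 103 H3K27me3 against 1 to 13 WCE reads. Chromosome 19 had 2 of the 8 highest, from 44800001 (1216 and 232; 5.32, 4.62 to 6.15) and from 45200001 (813 and 209; 3.95, 3.39 to 4.62). The others lay on chromosome 2 from 33400001 (4.02), chromosome 14 from 121600001 (3.76) and from 62200001 (3.68) and chromosome 11 from 97300001 (3.72). All 8 held 7 to 16 called 4 kb windows. The tile on chromosome 14 from 121600001 had the fewest reads, 348 and 94, and the highest H3K4me3 ratio of the 8, at 2.07 (1.62 to 2.68).

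The 5 longest runs of called 100 kb tiles had ratios of 1.75 to 2.19, against 1.90 over all called 100 kb tiles. The longest covered 1100 kb of chromosome 1 from 94000001 to 95100000, with 3604 H3K27me3 and 1991 WCE reads (1.84, 1.74 to 1.94). Its 11 tiles ran from 1.59 to 2.23, and 3 of them held no called 4 kb window. On chromosome 9 lay runs of 900 kb from 61200001 (1.75, 1.65 to 1.85), with 5 of 9 tiles lacking a called window, and of 800 kb from 44700001 (1.87, 1.76 to 1.99), with 4 of 8. The latter had an H3K4me3 ratio of 0.569 (0.524 to 0.618), and the former 0.833. Runs of 700 kb on chromosome 11 from 118300001 (2.19, 2.06 to 2.32) and chromosome 2 from 165800001 (1.85, 1.75 to 1.96) had H3K4me3 ratios of 1.14 and 1.06.

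Tiles called lower covered less length than tiles called higher at 10 and 20 kb, and more at 50 and 100 kb. The median tile ratio was 0.870 at 10 kb and 0.806 at 100 kb. Tiles called lower numbered 107 at 10 kb (0.0577%), 2643 at 20 kb (2.37%), 9026 at 50 kb (19.3%) and 6924 at 100 kb (29.4%). They cover 1.07, 52.9, 451 and 692 Mb. At 100 kb their ratio was 0.538 (0.536 to 0.540). Called lower on the forward strand, 1792 tiles of 50 kb went from 0.383 to 0.617 (0.609 to 0.625) on the reverse strand, and 3886 tiles of 100 kb from 0.494 to 0.618 (0.614 to 0.623). The longest run was 3200 kb on chromosome 14 from 89500001 to 92700000, with 911 H3K27me3 and 1946 WCE reads (0.475, 0.439 to 0.514), where H3K4me3 was at 0.316 and H3K9me3 at 0.631. Runs of 2400 kb on chromosome 17 from 58800001 (0.452) and 2300 kb on chromosome 12 from 94100001 (0.518) followed. The 5 lowest single tiles hold 0 or 1 H3K27me3 reads against 9 to 11 WCE reads and say little at this depth. The lowest, on chromosome 4 from 143200001, had 0 against 10 and an upper limit of 0.453.

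A low ratio is relative to the autosomal total, and the counts of lower tiles depend on the scaling. The part of enriched regions in the low ratios was not tested. Scaling by the median ratio of 100 kb tiles multiplies each ratio by 1.24, a shift of 0.31 on the log2 scale. Higher and lower tiles then numbered 16537 and 1 at 10 kb, 14343 and 12 at 20 kb, 8610 and 682 at 50 kb, and 4383 and 1833 at 100 kb. Scaling by the reads outside called 4 kb windows multiplies each ratio by 1.04. It gave 8570 higher and 1162 lower tiles at 20 kb, and 2573 and 5942 at 100 kb. The lower calls at 10 and 20 kb were thus nearly all lost under the first scaling.

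WCE density moved with the ratio. When 100 kb tiles were put into 10 equal groups by forward-strand WCE reads and measured on reverse-strand reads, the H3K27me3 ratio was 0.591 (0.582 to 0.600) in the sparsest group and 1.15 (1.14 to 1.16) in the densest. Higher calls made up 1.06% of the sparsest and 18.3% of the densest group, and lower calls 37.7% and 6.87%, with a peak of 59.4% in the second sparsest. Unlike the ratios, these calls used reads of both strands, among them the WCE reads that formed the groups. Median WCE reads per tile rose from 39 to 255, and with fewer reads a call needs a ratio further from 1. The shares are thus a description. H3K4me3 ran from 0.382 to 1.55 and H3K9me3 from 0.866 to 1.06 over the same groups, against the same WCE reads. Weak tiles were most frequent in group 7, with 197 of the 970, while called 4 kb windows were most frequent in group 10, with 1553. Weak tiles made up 25 of 25 higher tiles in group 1 and 67 of 431 in group 10. They lack a called window by definition, and a window is called more easily with more reads. The part of depth in this order was not tested. Another scaling used other groups: megabases were put into 10 groups by WCE reads of both strands. Each tile took the expected ratio of the group its megabase fell in. Higher and lower tiles then numbered 5102 and 723 at 10 kb, 5785 and 3661 at 20 kb, 4198 and 5202 at 50 kb, and 2133 and 3056 at 100 kb. At 100 kb 1539 of the 2209 higher tiles (69.7%) and 2303 of the 6924 lower tiles (33.3%) were called in the same direction. Against the H3K9me3 library 1470 higher tiles (66.5%) and 2395 lower tiles (34.6%) were. These counts share the H3K27me3 reads with the main ones.

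**Figure D5:**
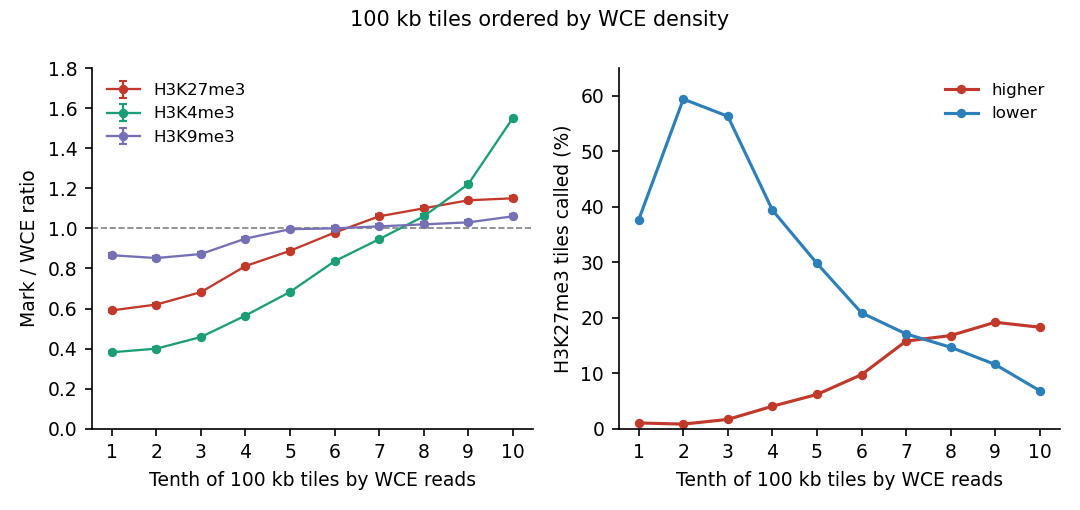
Ratio to WCE of the 3 marks on reverse-strand reads (left panel, y axis) and share of 100 kb tiles called higher or lower for H3K27me3 (right panel, y axis, %), against 10 equal groups of 100 kb tiles ordered from sparse to dense by forward-strand WCE reads (x axis). Bars on the left are 95% exact intervals, and the calls on the right used reads of both strands. The H3K27me3 ratio climbs from 0.591 to 1.15 and the share called lower drops from 59.4% in group 2 to 6.87% in group 10.

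Chromosomes differed in the share of 50 kb tiles called higher. It was highest on chromosome 11 (393 of 2369, 16.6%) and lowest on chromosome 3 (175 of 3094, 5.66%). Median WCE reads per tile were 77.0 and 43.0 on these chromosomes, and the median ratio was 0.900 and 0.744. The order of chromosomes is thus not free of WCE density, whose part was not tested.

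By the same rule, the share of tiles called higher for H3K27me3 lay between those of the other marks. At 10 kb, 6.34% of H3K4me3 tiles and 0.273% of H3K9me3 tiles were called higher, and at 100 kb 13.5% and 3.96%. Single tiles made up 82.8% of 8965 H3K4me3 domains and 93.1% of 462 H3K9me3 domains of 10 kb tiles, against 69.7% for H3K27me3. With 10 kb tiles the longest domain was 180 kb for H3K27me3, 90 kb for H3K4me3 and 50 kb for H3K9me3. With 100 kb tiles the order was reversed, at 1100, 1700 and 2000 kb. There, domains of at least 500 kb held 39.8% of the called length for H3K9me3, 13.4% for H3K4me3 and 8.83% for H3K27me3. The comparisons share WCE and the H3K9me3 library is shallower, at 2101444 autosomal reads, so no difference between marks was tested.

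Inside the H3K27me3 domains of 10 kb tiles the ratios of both other marks to WCE were lower in the longest class than in single tiles, while their RPM levels were higher. The H3K4me3 ratio was 1.16 (1.15 to 1.18) in single tiles, 1.0 (0.988 to 1.02) in domains of 20 kb and 0.876 (0.839 to 0.914) in those of at least 100 kb. Its RPM per 10 kb tile, a level that needs no WCE, was 6.12 in single tiles and 7.84 in the longest class, against 5.24 over all tiles, and WCE was denser in the longest class too. The H3K9me3 ratio was 1.42 (1.40 to 1.44) in single tiles and 1.29 (1.23 to 1.35) in the longest class, and its RPM per 10 kb tile was 7.47 and 11.5, against 5.06 over all tiles. In the weak 100 kb tiles H3K4me3 stood at 0.773 (0.767 to 0.779) and H3K9me3 at 1.11 (1.1 to 1.12), while in called tiles with 5 or more 4 kb windows they stood at 1.12 (1.1 to 1.14) and 1.19 (1.17 to 1.21).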

How the data were processed

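The authors deposited 1 list of signed read positions per library, in which negative numbers stand for reverse-strand reads, with no peaks or normalized values. Reads were aligned to mm8 with Bowtie (options e 70, k 2, m 2, n 2 and l 36), per the file headers; the version is not given in the sources used here. Reads with 1 reported position on the 19 autosomes were collapsed to 1 per signed position and moved 60 bp along their strand. They were counted in tiles that start at base 1, and tiles with at least 10 reads of both libraries together were tested with exact binomial tests and Benjamini-Hochberg adjustment over all tiles of a size. Windows of 4 kb with at least 1 read were tested likewise. The calling, joining and covariance steps were tested on simulated data. Named regions are the 12 longest 10 kb domains, the 8 highest 100 kb tiles with and without the 4 kb condition, the 5 longest runs, the 5 lowest tiles and the extreme chromosomes at 50 kb. The longest lower runs and the longest domain at each size were added after their values were seen. The comparison, sizes and lists were chosen with earlier results of these data known. Alternatives changed scaling, repeated reads, shift, thresholds, filters, tile starts, strands and control. Counting ran in Python 3.11.15 with numpy 2.4.6, tests used scipy 1.17.1 and plots used matplotlib 3.10.9. Genes and sequences were not reported, because the gene table at hand is for another build.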

Additional observations from a re-analysis of the deposited data

Results flagged for a closer look

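The X chromosome lay outside the autosomal comparison. With the autosomal scaling, 25 of 1466 tested 100 kb tiles there (1.71%) had H3K27me3 above WCE by the same rule and 496 (33.8%) had it below. The autosomal shares were 9.37% and 29.4%, but X tiles held fewer WCE reads, so these shares are at unlike depth. In the sparsest group of autosomal tiles by WCE reads 1.06% were called higher and 37.7% lower. In the second sparsest these were 0.849% and 59.4%. The ratio over the X chromosome was 0.761 (0.752 to 0.770, 49222 H3K27me3 and 65679 WCE reads). Whole autosomes ran from 0.880 on chromosome 3 to 1.13 on chromosome 11. Reads with 2 reported positions were not used either. Scaled by their own totals, they exceeded WCE in 137 of 9990 autosomal 100 kb tiles (1.37%) and fell below it in 70 (0.701%). They gave 176807 H3K27me3 and 175201 WCE positions there, far below the depth of the main comparison, so these shares cannot be set against the main ones. Which of its positions such a read came from cannot be told.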

How the results depend on the processing

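Each group holds 1 library, so no replicate could be left out. No paired analysis was possible because each group holds 1 library. Of 179 alternative values, 106 stayed within 1.5 times the main count or within the interval of the main value, and 73 moved, among them the 3 covariance values, which have no error to be set against. Counts follow in the order of tile size. Scaling by the median ratio gave 16537, 14343, 8610 and 4383 higher and 1, 12, 682 and 1833 lower tiles, 8652 domains of 10 kb tiles (main 4815), 157 Mb of weak tiles (main 97.0) and a ratio of 1.37 at 20 to 50 kb from domains (main 1.29). Scaling by reads outside called 4 kb windows left 27 lower tiles at 10 kb and 1162 at 20 kb. With all reads kept, these were 705 and 5024, and the ratio at 20 to 50 kb was 1.26. Without the filter on reads 48 lower tiles were called at 10 kb, and with at least 10 WCE reads 267. An adjusted p under 0.01 gave 4475 higher tiles and 3022 domains at 10 kb, and 10, 259 and 3651 lower tiles up to 50 kb. A ratio of at least 2 gave 1719 and 606 higher and 5423 and 2781 lower tiles at 50 and 100 kb, and 9.0 Mb of weak tiles. Forward-strand reads alone gave 2901 and 3467 higher tiles at 10 and 20 kb, 3, 11, 1792 and 3886 lower tiles, 2230 domains and 176 Mb of weak tiles, and reverse-strand reads alone 2651 and 3530, then 1, 8, 1632 and 3838, with 2058 and 177. The weak length rises there because 4 kb windows are called from the same smaller number of reads. A uniform control in place of WCE gave 26049, 22645, 9809 and 5051 higher and 45259, 46885, 21376 and 10562 lower tiles, 10194 domains and 328 Mb of weak tiles. The 2 alternatives chosen after seeing the data were the H3K9me3 library as control, with 3662 and 4543 higher tiles at 10 and 20 kb, 2682 domains and 1031, 4678 and 4088 lower tiles at 10, 50 and 100 kb, and scaling within 10 groups of megabases by WCE density, with 723, 5202 and 3056 lower tiles at those sizes. Called 10 kb tiles in place of 4 kb windows left 31.3 Mb of weak tiles, and joining 50 or 100 kb tiles gave 2487 or 1331 domains. Domains of 20 kb tiles gave 1.19 at 20 to 50 kb. The covariance at 100 kb was 39.9% with 0.5 reads added, 51.5% with 20 kb tiles and 38.5% without tiles that hold a called 4 kb window, against 38.6%. Beyond fewer reads, stricter thresholds and wider tiles, the cause was not tested. Depth limits the short tiles most, as the ratio of 2.58 needed in a median 10 kb tile shows.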
